A study of Mus musculus with 7 samples.

Results

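The NRF2 antioxidant response genes described here are 10 genes chosen by symbol from the deposited liver expression tables: Nfe2l2, Keap1, Nqo1, Gclc, Gclm, Hmox1, Srxn1, Txnrd1, G6pdx and Slc7a11. All 10 had a usable row in each of the 7 tables, out of 33887 symbols with a usable row in every table. The study sequenced total RNA from livers of C57BL/6 mice in 2 experiments. In the first, 2 WT (wild-type) libraries were set beside 2 SunTag libraries, which came from mice with a SunTag-dCas9 knock-in. dCas9 is a Cas9 protein without cutting activity, and SunTag is a peptide array that recruits effector proteins to it. In the second, all 3 libraries came from liver of SunTag-dCas9 mice. There 2 Myod1_control libraries were set beside 1 Myod1_active library, in which the muscle regulator gene Myod1 was activated. The sources used here do not give the promoter that drives the knock-in, the age of the mice, how Myod1 was activated or what the control mice received. The first comparison asked whether the knock-in alone altered the liver transcriptome, and the second what followed activation of Myod1.

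NRF2, the protein encoded by Nfe2l2, is a transcription factor that is made and degraded continuously in unstressed cells. The sensor protein Keap1 binds NRF2 and hands it to a ubiquitin ligase built on Cul3 and Rbx1. Oxidants and electrophiles modify cysteines of Keap1, NRF2 then accumulates, pairs with a small Maf protein and binds antioxidant response elements in its target genes, where the repressor Bach1 competes for the same sites. The targets supply glutathione (Gclc, Gclm, Slc7a11), keep thioredoxin and peroxiredoxins reduced (Txnrd1, Srxn1), generate NADPH (G6pdx), reduce quinones (Nqo1) and break down heme (Hmox1). In liver, where drugs and dietary electrophiles are metabolised, the pathway is known for protection against toxic injury. NRF2 is controlled largely at the level of the protein, which RNA tables do not measure.

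Values are FPKM, fragment counts divided by transcript length and by the number of mapped fragments, so levels of different genes are compared per length. Myod1 was at 3.52 FPKM in the Myod1_active library and listed at 0 in the other 6, matching the labels. Total read counts were unknown, and the depth relative to the mean of the 7 libraries, estimated from the deposited bounds of 3959 genes, lay between 0.943 and 1.09. Libraries of the 2 experiments stood apart: the correlation of log2(FPKM + 1) across genes was 0.866 to 0.903 between experiments, 0.929 to 0.942 within the Myod1 experiment and 0.943 to 0.958 among the WT and SunTag libraries. SunTag replicate 1 had the lowest correlations of the last 4. Xist, a transcript of the inactive X chromosome, was at 56.9 to 82.2 FPKM in the WT and SunTag libraries and at 0.00420 to 0.324 FPKM in the Myod1 experiment, where the summed FPKM of 4 Y-linked genes was 46.4 to 50.4 against 0.133 to 0.716. The sex of the mice therefore differed between the experiments, and sex, experiment and any handling that went with them cannot be told apart in a comparison across them. Hepatocyte markers were high in all 7 libraries, with a summed level of 59405 to 95439 FPKM over 10 genes. Nothing in the labels ties the libraries of a group to different animals. Each p-value below therefore sets a group difference against the library-to-library spread, which may be technical.

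Promoter sequence was available in RefSeq (GRCm38.p6) for 8 of the 10 genes, not for Gclc and Hmox1. The 250 bases before each start site were searched on both strands for the core of the antioxidant response element, TGACNNNGC, and for its close variant TGAGNNNGC. The 2 motifs cannot match the same bases on the same strand. Of 10 windows for the 8 genes, 6 held a match, and 23% of 32851 mouse windows of that length held one. Those 6 windows belonged to Nfe2l2, Gclm, Srxn1, Txnrd1, G6pdx and Slc7a11, and the Keap1 and Nqo1 windows held none. A match describes the letters only, and a window without one says nothing of sites elsewhere. The 3 windows below are printed because Srxn1 carried 2 matches, where 3.18% of all windows held 2 or more, and because the values of G6pdx and Gclm are set beside those of partner enzymes further on. They are given in the direction of the gene, 5′ to 3′, with matches on either strand in capitals, and end at the base before the start site. The Srxn1 window is chr2:152105274-152105523 on the plus strand, the G6pdx window chrX:74428881-74429130 on the minus strand and the Gclm window chr3:122245307-122245556 on the plus strand.
Srxn1: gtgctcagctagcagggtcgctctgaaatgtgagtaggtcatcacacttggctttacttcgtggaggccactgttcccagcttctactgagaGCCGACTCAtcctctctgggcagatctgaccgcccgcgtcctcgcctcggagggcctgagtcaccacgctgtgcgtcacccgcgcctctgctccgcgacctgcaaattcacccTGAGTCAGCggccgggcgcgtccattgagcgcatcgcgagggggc
G6pdx: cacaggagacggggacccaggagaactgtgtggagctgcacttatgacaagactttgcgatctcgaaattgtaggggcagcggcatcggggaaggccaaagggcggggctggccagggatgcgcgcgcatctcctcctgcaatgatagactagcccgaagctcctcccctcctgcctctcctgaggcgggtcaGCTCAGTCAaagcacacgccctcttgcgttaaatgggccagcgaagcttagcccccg
Gclm: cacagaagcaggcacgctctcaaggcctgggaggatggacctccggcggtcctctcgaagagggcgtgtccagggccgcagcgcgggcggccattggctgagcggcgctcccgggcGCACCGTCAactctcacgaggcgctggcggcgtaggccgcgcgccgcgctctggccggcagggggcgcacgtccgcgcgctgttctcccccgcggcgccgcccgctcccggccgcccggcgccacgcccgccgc
In Srxn1 the match nearest the start began 45 bases before it as TGAGTCAGC on the gene's strand, and the other read TGAGTCGGC on the opposite strand. In G6pdx the match read TGACTGAGC and in Gclm TGACGGTGC, both on the opposite strand.

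The 10 genes spanned a wide range of levels in liver. By the median of the 7 libraries, Gclm was highest at 113 FPKM, followed by Gclc at 64.9, Txnrd1 at 39.1, Srxn1 at 24.5, Keap1 at 21.0, Nfe2l2 at 17.7, Hmox1 at 11.6, G6pdx at 4.95, Nqo1 at 4.31 and Slc7a11 at 0.468 FPKM. Of the 15744 genes tested, 94.0% had a lower median than Gclm and 43.1% a lower median than Nqo1. Gclc was above Txnrd1 in every library, and Nqo1 was above Slc7a11 in every library. For the other neighbours in this order the ranges over the 7 libraries overlapped. Keap1, Txnrd1 and Gclm varied least, with the highest library 1.28, 1.30 and 1.35 times the lowest. G6pdx varied most, at 4.01 times, ahead of Hmox1 at 3.19, Gclc at 2.53, Nqo1 at 2.50 and Srxn1 at 2.21 times.

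**Figure D1:**
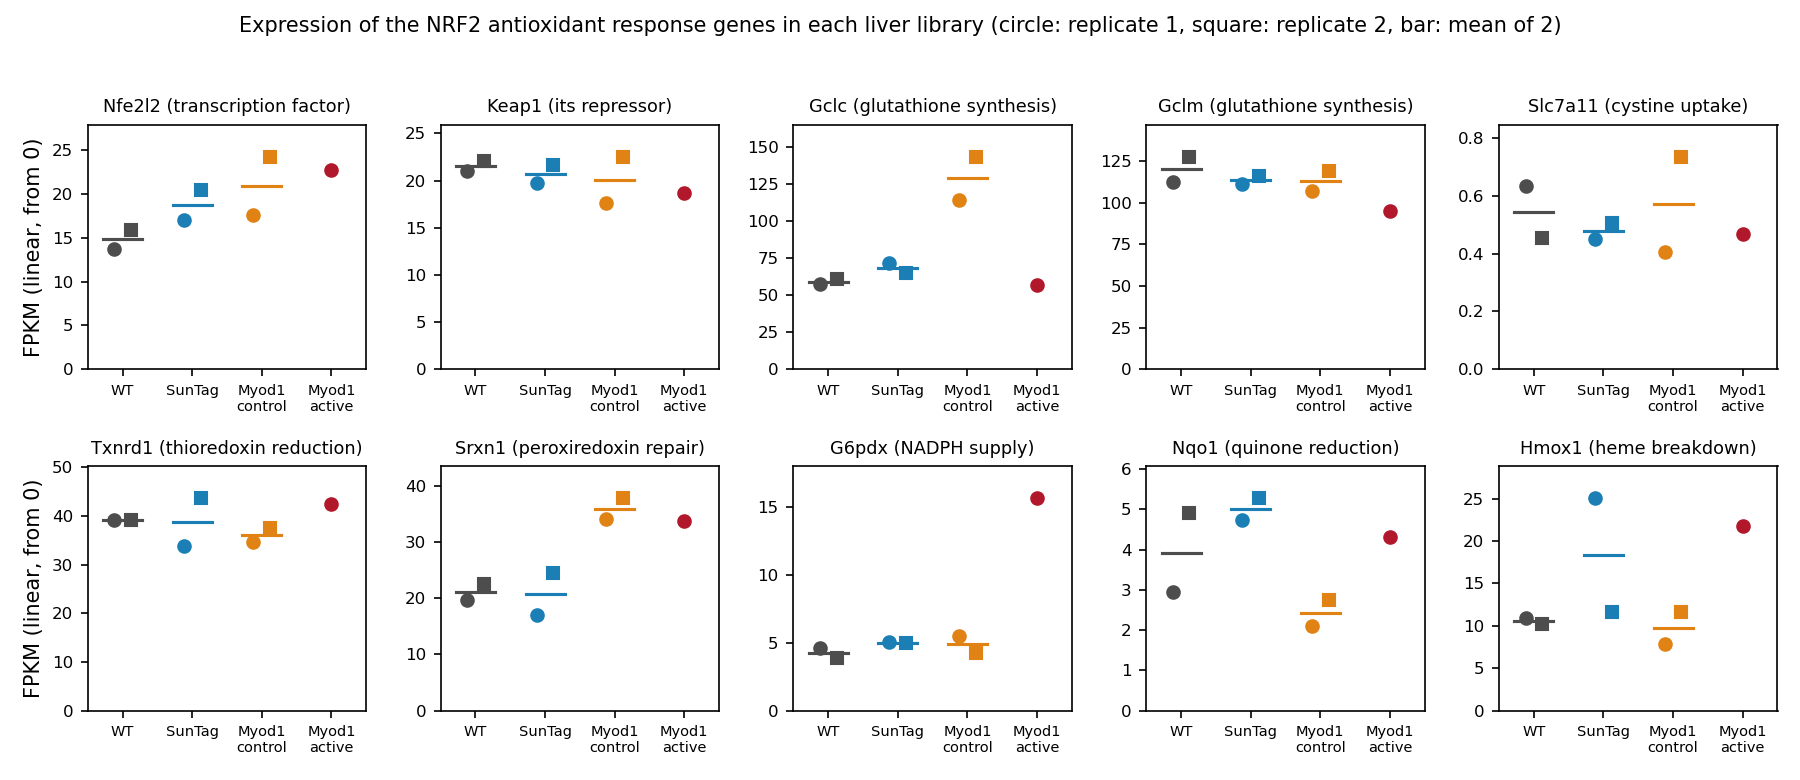
FPKM of each of the 10 genes (y axes, linear from 0) by group (x axes), with 1 point per library and a bar at the mean of groups with 2 libraries. Gclc and Srxn1 are highest in Myod1_control, G6pdx stands at 15.7 FPKM in the single Myod1_active library, and Hmox1 is high in 1 SunTag library and in Myod1_active.

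Tests were run over all 15744 genes that reached 1 FPKM in at least 1 library, with limma on log2(FPKM + 1) and Benjamini-Hochberg adjustment at 0.05. 9 of the 10 genes entered, and Slc7a11 stayed below the filter. Each log2 difference below has the median gene's difference in that comparison subtracted, which was 0.01 for SunTag versus WT, 0.25 for Myod1_active versus Myod1_control and -0.14 for Myod1_control versus SunTag. P-values, adjusted or not, belong to the differences before that shift. With the shift and the added 1, a log2 difference is not the log2 of a ratio of mean FPKM given beside it. The comparisons of Myod1_active with Myod1_control and of Myod1_control with SunTag share the Myod1_control libraries, so their differences are not independent of each other. Myod1_active had no replicate, and its spread was taken to be that of the other groups.

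Nfe2l2 (ENSMUSG00000015839; mm9 chromosome 2, 75513570 to 75542698) encodes NRF2 itself. It stood at 13.8 and 15.9 FPKM in WT replicates 1 and 2, 17.0 and 20.5 in SunTag, 17.7 and 24.3 in Myod1_control and 22.8 in Myod1_active. Both SunTag libraries were above both WT libraries, and Myod1_active lay inside the range of its controls. The difference of SunTag from WT was 0.30 on the log2 scale, with a 95% interval of -0.23 to 0.83 and an adjusted p of 1 (limma). Keap1 (ENSMUSG00000003308; chromosome 9, 21034174 to 21043776), which targets NRF2 for degradation, was at 21.0 and 22.0 FPKM in WT, 19.7 and 21.6 in SunTag, 17.6 and 22.5 in Myod1_control and 18.7 in Myod1_active. Its groups overlapped in each comparison, and the difference of SunTag from WT was -0.07, with an interval of -0.48 to 0.34. Neither gene passed the test in any of the 3 comparisons. The Keap1 span overlaps the row Gm16754, which was at 0.550 FPKM or less in every library.

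Gclc (ENSMUSG00000032350; chromosome 9, 77602342 to 77642292), the catalytic subunit of glutamate-cysteine ligase and the rate-limiting enzyme of glutathione synthesis, was the 1 gene of the 9 that passed the test, in Myod1_control versus SunTag, where 24.3% of all tested genes passed. WT held 57.5 and 60.7 FPKM, with 71.9 and 64.9 in SunTag, 114 and 144 in Myod1_control and 56.7 in Myod1_active. The Myod1_control libraries were above all 5 others, and the Myod1_active value was the lowest of the 7. Myod1_control averaged 129 ± 20.9 FPKM (SD, n = 2) against 68.4 ± 4.98 in SunTag (SD, n = 2), a ratio of 1.88. The log2 difference was 1.03 (SE 0.16, 95% interval 0.61 to 1.45) with an adjusted p of 0.0261 by limma. That call was lost when only the 2 groups compared were fitted (adjusted p 0.0683) and when any 1 of the 6 libraries of WT, SunTag or Myod1_control was left out. Those adjusted p-values were 0.0768 and 0.0779 without WT replicates 1 and 2, 0.0666 and 0.0536 without SunTag replicates 1 and 2, and 0.0787 and 0.0971 without Myod1_control replicates 1 and 2, while over all 16 alternatives they ran from 0.00937 to 0.0971. Gclc in Myod1_active was 0.440 times the mean of its controls. Its log2 difference there was -1.41 (SE 0.20, interval -1.93 to -0.90), and -1.16 before the shift. The unadjusted p was 0.00218 and the adjusted p 0.151 (limma), which did not pass. In all 7 libraries the deposited Gclc value lay above its own deposited upper bound, so its bounds were not read as errors.

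Gclm (ENSMUSG00000028124; chromosome 3, 121948475 to 121972902), is the modifier subunit that makes the Gclc enzyme more efficient. WT held 113 and 128 FPKM, with 111 and 116 in SunTag, 107 and 119 in Myod1_control and 94.9 in Myod1_active. WT, SunTag and Myod1_control overlapped, and Myod1_active was the lowest library. Its difference of Myod1_control from SunTag was 0.13, with an interval of -0.23 to 0.48, and before the shift to the median gene it was -0.01, so it has no settled direction. Myod1_active differed from Myod1_control by -0.50 with an adjusted p of 0.443 (limma). The Gclm span overlaps the row Gm17494 by 12894 bp, and that row was at 66.5 to 145 FPKM in WT and SunTag and at 20.8 to 35.6 FPKM in the Myod1 experiment. It also overlaps the row RP23-71G16.1.1 by 492 bp, which was at 55.0 to 111 FPKM in WT and SunTag. That row was at 43.6 and 37.8 FPKM in Myod1_control and at 67.8 in Myod1_active. Whether counting used strand is likewise not given. Whole spans were compared and not exons, so whether the overlapping rows share reads cannot be told. Slc7a11 (ENSMUSG00000027737; chromosome 3, 50168858 to 50247535), the cystine transporter that brings in the cysteine precursor, was at 0.635 and 0.453 FPKM in WT, 0.451 and 0.507 in SunTag, 0.405 and 0.736 in Myod1_control and 0.468 in Myod1_active. Its WT, SunTag and Myod1_control ranges overlapped, and all 7 values were under the filter of 1 FPKM.

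Txnrd1 (ENSMUSG00000020250; chromosome 10, 82296696 to 82360469), the cytosolic reductase that regenerates thioredoxin, was at 39.3 and 39.1 FPKM in WT, 33.8 and 43.7 in SunTag, 34.6 and 37.6 in Myod1_control and 42.6 in Myod1_active. WT and Myod1_control both lay inside the SunTag range, and SunTag replicate 1 was the lowest of the 7. Its difference was -0.04 for SunTag versus WT, -0.02 for Myod1_active versus Myod1_control and 0.05 for Myod1_control versus SunTag, and before the shift the last 2 were 0.23 and -0.09, so no direction is given. Srxn1 (ENSMUSG00000032802; chromosome 2, 151931252 to 151937112), the sulfiredoxin that restores over-oxidised peroxiredoxins, was at 19.7 and 22.5 FPKM in WT, 17.1 and 24.5 in SunTag, 34.1 and 37.8 in Myod1_control and 33.6 in Myod1_active. All 3 libraries of the Myod1 experiment were above all 4 of the other experiment. Myod1_control averaged 35.9 ± 2.65 FPKM (SD, n = 2) and SunTag 20.8 ± 5.27 (SD, n = 2), a log2 difference of 0.92 (SE 0.21, interval 0.38 to 1.45). Its adjusted p of 0.0525 (limma) missed the threshold. Over the 16 alternatives the adjusted p ran from 0.0189 to 0.182 and passed in 8, among them without SunTag replicate 2 (0.0264) and without Myod1_active (0.0493). Myod1_active differed from Myod1_control by -0.34, with an adjusted p of 0.870.

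G6pdx (ENSMUSG00000031400; chromosome X, 71654822 to 71674533), glucose-6-phosphate dehydrogenase and the entry enzyme of the oxidative pentose phosphate pathway, was at 4.63 and 3.91 FPKM in WT, 5.09 and 4.95 in SunTag, 5.51 and 4.26 in Myod1_control and 15.7 in Myod1_active. The first 6 values lay close together and Myod1_active stood well above them. It was 3.21 times the control mean of 4.89 ± 0.884 (SD, n = 2). Its log2 difference relative to the median gene was 1.26 (SE 0.20, interval 0.75 to 1.76), and 1.51 before the shift. The unadjusted p was 0.00062 and the adjusted p 0.114 (limma), so it did not pass, and over 15 alternatives the adjusted p stayed between 0.0645 and 0.297. It rests on 1 library, whose value of 15.7 was also above its own deposited upper bound of 15.1.

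The G6pdx span lies inside that of Ikbkg, a regulatory subunit of the NF-kappaB kinase. Exons were not compared here either, so whether the 2 rows share reads cannot be told. Ikbkg was at 14.6 and 13.1 FPKM in WT, 17.5 and 18.2 in SunTag, 34.8 and 42.6 in Myod1_control and 29.2 in Myod1_active. It was therefore lower in Myod1_active than in both controls, where G6pdx was higher. The near copy G6pd2 was at 0.0182 FPKM or less in WT, at 0.0171 and 0.0577 in SunTag, 0.0568 and 0.0189 in Myod1_control and 0.197 in Myod1_active. In the NADPH supply list, Pgd, the next NADPH-yielding enzyme of the pathway, was at 24.4 and 28.4 FPKM in Myod1_control and 38.8 in Myod1_active. Transketolase (Tkt) was at 47.2 in both controls and 72.5 in Myod1_active. Pgls, the lactonase between G6pdx and Pgd, was at 30.5 and 33.5 in the controls against 56.8. It was at 47.9 and 57.3 in WT and 51.3 and 53.1 in SunTag, so the Myod1_active value lay inside the WT range. These 3 were named after their values were seen, were above the range of the controls, as 61.4% of all genes were, and did not pass the test, with adjusted p-values of 0.284, 0.292 and 0.161 (limma).

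Nqo1 (ENSMUSG00000003849; chromosome 8, 109912125 to 109927106), the quinone reductase often used as a readout of NRF2, was at 2.94 and 4.90 FPKM in WT, 4.73 and 5.28 in SunTag, 2.11 and 2.75 in Myod1_control and 4.31 in Myod1_active. Both Myod1_control libraries were below the other 5. Myod1_control averaged 2.43 ± 0.450 FPKM against 5.01 ± 0.391 in SunTag (SD, n = 2 each), a log2 difference of -0.68 (SE 0.24, interval -1.29 to -0.07). The adjusted p was 0.0641 (limma), and over 16 alternatives it ran from 0.0345 to 0.218 and passed in 2. Myod1_active was 1.77 times its controls, with a log2 difference of 0.38, or 0.64 before the shift, and an adjusted p of 0.297 (limma). Its difference of Myod1_control from SunTag had the opposite sign to those of Gclc and Srxn1.

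Hmox1 (ENSMUSG00000005413; chromosome 8, 77617490 to 77624495), heme oxygenase 1, which in liver is also made by macrophages that clear red cells, was at 10.9 and 10.2 FPKM in WT, 25.1 and 11.6 in SunTag, 7.86 and 11.6 in Myod1_control and 21.8 in Myod1_active. SunTag replicate 1 and Myod1_active were high, and the other 5 libraries lay within 7.86 to 11.6 FPKM. The difference of SunTag from WT was 0.64 (SE 0.39, interval -0.36 to 1.64), and before the shift it was 0.13 without SunTag replicate 1. Myod1_active was 2.24 times its controls, with a log2 difference of 0.86 (SE 0.48) and an adjusted p of 0.280. For Myod1_control versus SunTag the difference was -0.64 with an adjusted p of 0.195, which was 0.0437 without SunTag replicate 2, over a range of 0.0437 to 0.544 in 16 alternatives (limma).

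Markers of other liver cells moved with some of these values. The summed level of 16 Kupffer cell and macrophage markers was 446 and 547 FPKM in WT, 765 and 474 in SunTag, 116 and 164 in Myod1_control and 201 in Myod1_active, with none at 0, and so was highest in SunTag replicate 1, where Hmox1 was also highest. 10 of the 16 fell in Myod1_control versus SunTag and none rose, where 17.0% of all tested genes fell and 7.30% rose. That count was 6 without SunTag replicate 1 and 0 without any 1 of the WT or Myod1_control libraries. The markers did not all follow the sum. Clec4f, which marks Kupffer cells, was at 148 FPKM in SunTag replicate 1, 11.4 and 13.3 in Myod1_control and 9.05 in Myod1_active. C1qa was at 70.4 to 133 FPKM in WT and SunTag, 13.7 and 14.7 in Myod1_control and 13.7 in Myod1_active. Vsig4 was at 17.7 to 27.1 FPKM in WT and SunTag, 3.25 and 2.48 in Myod1_control and 1.63 in Myod1_active. The phagocyte genes Cd68, at 14.0 FPKM, and Cybb, at 5.69, were instead highest of the 7 libraries in Myod1_active. Of the 16 markers, 6 were above both controls in Myod1_active, where 61.4% of all genes were, and 6 below both, where 16.6% were. Lyz2, the lysozyme of myeloid cells, was at 91.3 FPKM in SunTag replicate 1, 87.3 in Myod1_active and 16.1 to 56.5 in the other 5. The sum of 8 red cell markers was 2337 and 2358 FPKM in WT, 6392 and 3921 in SunTag and 39.9 to 46.0 in the Myod1 experiment. Alas2, the red cell enzyme of heme synthesis and 1 of the 8, went against the sum: it rose from 21.7 and 13.8 FPKM in SunTag to 44.1 and 38.2 in Myod1_control, where it made up most of the sum, while 4 of the 7 tested fell. With any 1 WT or Myod1_control library left out, that rise did not pass and 4 markers fell. Markers of further cell types fell in Myod1_control versus SunTag as well: 10 of 12 tested endothelial, 6 of 8 lymphocyte, 6 of 10 stellate cell and 4 of 10 periportal hepatocyte markers, with none rising. Without SunTag replicate 1 these counts were 6, 0, 2 and 0, without SunTag replicate 2 they were 7, 6, 6 and 2, and without any 1 of the WT or Myod1_control libraries they were at most 1 each. The endothelial sum was 240 to 266 FPKM in WT and SunTag, 79.7 and 81.0 in Myod1_control and 56.9 in Myod1_active. Pericentral hepatocyte markers come from the zone around the central vein where drug metabolism is concentrated. They summed to 2503 FPKM in SunTag replicate 1 and 2542 in Myod1_active against 4582 to 4878 in the other 5 libraries, with none of 12 at 0. Their mean log2(FPKM + 1) differed less, at 5.70 and 6.08 against 6.27 to 6.65. In Myod1_active 4 of the 12 were above both controls and 6 below both, where 61.4% and 16.6% of all genes were. The part of these markers in the results was not tested, and in bulk tissue fewer cells of a type and less RNA per cell cannot be told apart. The libraries of the 2 experiments also differed in make-up. The row mt-Ts1 held 26.3% to 33.4% of the FPKM sum in WT and SunTag and 5.80% to 8.32% in the Myod1 experiment. How that difference bears on the marker values was not tested.

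Ratios inside a library do not depend on the scaling between libraries, and those given here were chosen with the values in view. The ratio of Gclm to Gclc was 1.96 and 2.103 in WT, 1.55 and 1.79 in SunTag, 0.940 and 0.828 in Myod1_control and 1.68 in Myod1_active. Gclc was thus above Gclm in the 2 Myod1_control libraries and below it in the other 5. The ratio of Nfe2l2 to Keap1 was 0.655 and 0.723 in WT, 0.862 and 0.946 in SunTag, 1.004 and 1.076 in Myod1_control and 1.22 in the single Myod1_active library. How many other pairs of genes separate the groups in this way was not tested. Neither gene passed in any comparison, and between SunTag and Myod1_control sex and experiment differed too. The ratio of Srxn1 to Txnrd1 was 0.501 to 0.576 in WT and SunTag, 0.984 and 1.005 in Myod1_control and 0.790 in Myod1_active. The ratio of G6pdx to Pgd was 0.404 in Myod1_active and 0.150 to 0.248 in the other 6 libraries.

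**Figure D2:**
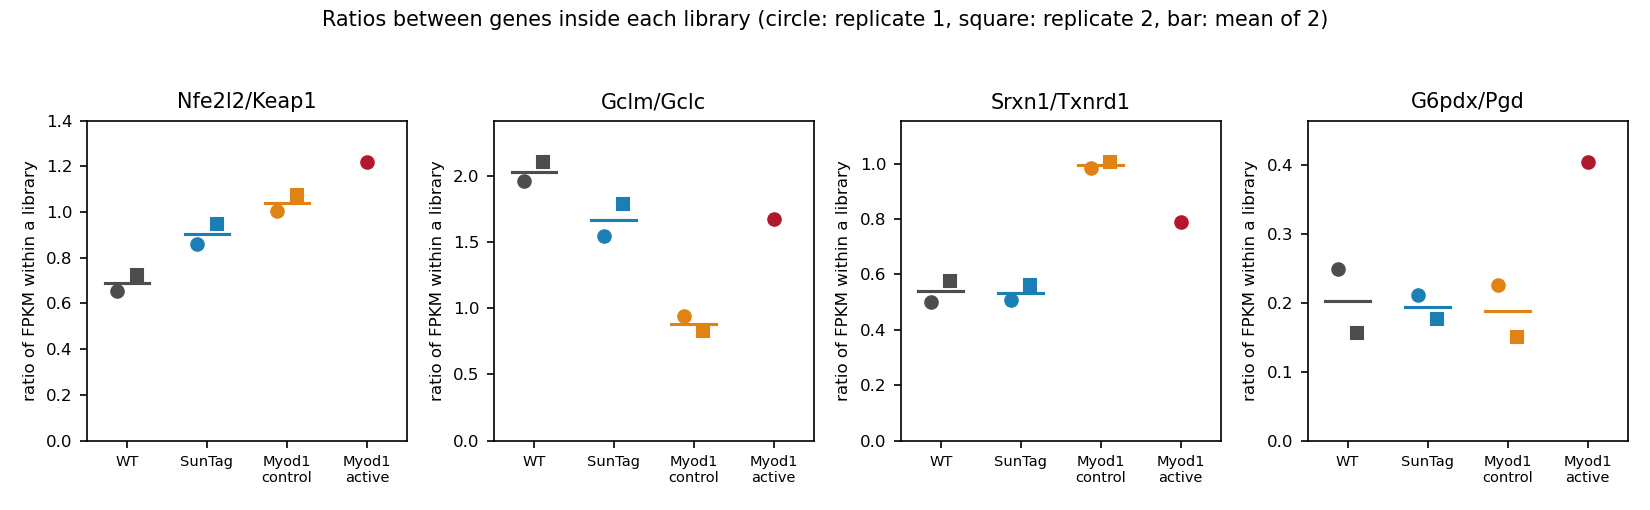
Ratios of FPKM between pairs of genes inside each library (y axes, linear from 0) by group (x axes), with 1 point per library and a bar at the mean of groups with 2 libraries. Gclm to Gclc is below 1 in the Myod1_control libraries alone, and G6pdx to Pgd is highest in Myod1_active at 0.404.

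Over the comparison of SunTag with WT, none of the 9 genes passed limma's test, and 0.127% of all tested genes did. None had an unadjusted p under 0.05 either, against 1.95% of all genes. Nfe2l2, Gclc, Hmox1 and G6pdx had both SunTag libraries above both WT libraries, 4 of 9 where 13.0% of all genes did, and none lay wholly below, where 12.8% did (25.8% in either direction). The largest of these 4 differences, in Hmox1, rests on SunTag replicate 1. The median of the 9 was 0.18 relative to the median gene.

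Over Myod1_active and Myod1_control, none of the 9 passed limma's test, and 0.254% of all genes did. G6pdx and Gclc had an unadjusted p under 0.05, 2 of 9 where 19.5% of all genes had one. Nqo1, Hmox1, Txnrd1 and G6pdx were above both controls, 4 of 9 where 61.4% of all genes were, and Gclc, Gclm and Srxn1 were below both, 3 of 9 where 16.6% were. Values outside the control range in either direction thus made up 7 of 9, against 78.0% of all genes. Relative to the median gene, 3 of the 9 were higher and 6 lower. By ratio of means, G6pdx and Hmox1 were at least 2 times their controls, where 10.3% of all genes were, and Gclc was at most 0.5 times its controls, where 5.68% were.

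Over Myod1_control and SunTag, 1 of the 9 passed limma's test, Gclc, and 24.3% of all tested genes did. Of all 15744 genes 1149 (7.30%) were higher and 2683 (17.0%) lower, and the split was 1735 higher and 1846 lower after median-ratio scaling. Gclc, Srxn1 and Nqo1 had an unadjusted p under 0.05, 3 of 9 where 41.7% of all genes had one. Gclc and Srxn1 had both Myod1_control libraries above both SunTag libraries, where 24.9% of all genes did, and Nqo1 and Hmox1 had them below, where 41.6% did (66.6% in either direction). In none of the 3 comparisons was the share of the 9 genes called above that of all genes.

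**Figure D3:**
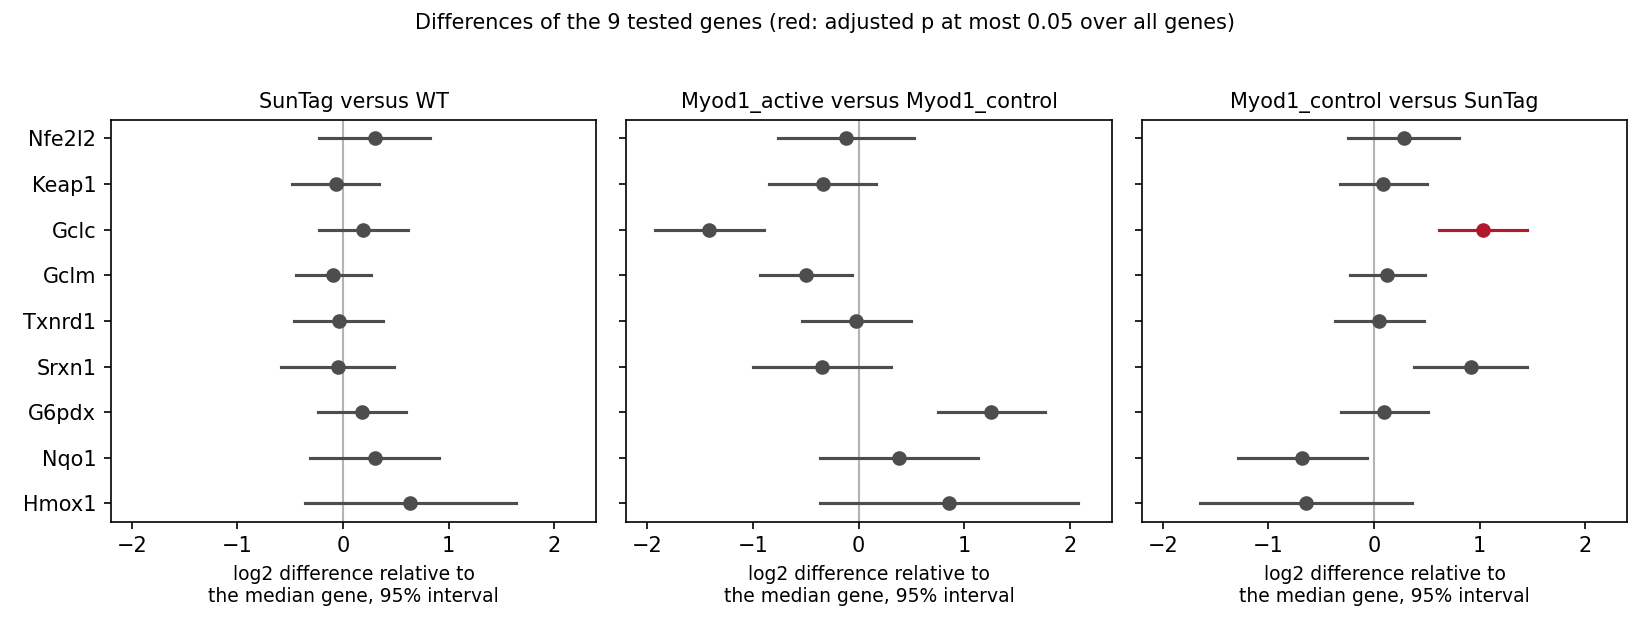
Log2 difference of each of the 9 tested genes relative to the median gene (x axes) in the 3 comparisons, with limma's 95% interval. Red marks Gclc in Myod1_control versus SunTag, the single call at 1.03, and the widest intervals are those of Hmox1.

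The other genes of the pathway were read from 7 lists with 170 genes in the tables, 156 of them tested and outside the 10. In SunTag versus WT none of the 156 passed limma's test, and 0.127% of all genes did. An unadjusted p under 0.05 was found in 3 (1.92%), against 1.95% of all genes, and the smallest adjusted p was 1. In Myod1_active versus Myod1_control none passed, and 0.254% of all genes did. There 26 (16.7%) had an unadjusted p under 0.05 by limma, against 19.5% of all genes, and the smallest adjusted p was 0.134. In Myod1_control versus SunTag 20 rose, 37 fell and 99 did not pass, 36.5% called where 24.3% of all genes were. After median-ratio scaling the counts were 25 and 25. They were 5 and 15 without SunTag replicate 1, 1 and 0 without either Myod1_control library, and 0 and 0 without either WT library. When the 2 groups compared were fitted alone they were 2 and 2. The list results below hold for the fit over all 7 libraries and for this comparison, in which sex and experiment cannot be told apart from the group.

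Of 18 tested regulators of NRF2, 5 rose and 2 fell, where 7.30% of all tested genes rose and 17.0% fell. The other 11 did not pass, and the median was 0.53 relative to the median gene. 2 partners of Keap1 in its ligase, Cul3 and Rbx1, fell, while Keap1 itself did not pass: Cul3 was at 43.4 and 36.0 FPKM in SunTag and 19.3 and 18.4 in Myod1_control (adjusted p 0.0195, limma), and Rbx1 was at 47.3 and 31.1 against 16.5 and 13.5 (adjusted p 0.0276). Mafg, a small Maf partner of NRF2, rose from 22.2 and 30.8 to 52.2 and 58.5 FPKM (adjusted p 0.0260). The chromatin factors Chd6 and Crebbp rose too, with log2 differences of 0.91 and 0.79. Outside the naming rule, the other 2 that rose were Bach1, the competing repressor, at 3.89 and 3.24 against 13.2 and 6.90 FPKM, and the acetyltransferase Ep300, and they were named after their values were seen. The most abundant regulators, Sqstm1, the autophagy receptor that binds Keap1, Dcaf11 and Rxra, did not pass, and Sqstm1 was at 328 and 335 FPKM in SunTag and 282 and 298 in Myod1_control.

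Of 43 other NRF2 targets, 9 rose and 11 fell, where 7.30% of all tested genes rose and 17.0% fell. The other 23 did not pass, and the list median was -0.28. Osgin1, an oxidative stress induced growth inhibitor, rose from 45.3 and 25.1 to 201 and 205 FPKM (log2 difference 2.69, SE 0.29, adjusted p 0.0167, limma) and was at 128 in Myod1_active. The glucuronosyltransferase Ugt2b35 rose from 19.0 and 28.6 to 88.1 and 85.2 FPKM. The microsomal glutathione transferase Mgst3 fell from 14.5 and 15.9 to 4.15 and 4.51 FPKM, the carbonyl reductase Cbr1 from 77.1 and 78.8 to 28.4 and 34.5, and the biliverdin reductase Blvra from 9.33 and 8.61 to 3.94 and 4.31. The most abundant targets, Mgst1, Ftl1 and Gsta3, did not pass, and Mgst1 was at 2988 and 2187 FPKM in SunTag and 2922 and 2639 in Myod1_control. Called targets thus lay on both sides of the median gene.

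Of 25 genes of glutathione synthesis, reduction and transport, 1 rose and 10 fell, where 7.30% of all tested genes rose and 17.0% fell. The other 14 did not pass, and the list median was -0.41. Mat1a, which makes the methyl donor upstream of cysteine synthesis, fell from 1152 and 1218 to 311 and 397 FPKM, and Cdo1, which removes cysteine by oxidation, from 983 and 1049 to 358 and 330. The glutathione peroxidase Gpx4 fell from 1033 and 644 to 246 and 243 FPKM, and Gpx3 and Glrx2 also fell. Of the most abundant genes of the list, Gnmt, a consumer of methyl groups, fell from 2531 and 2787 to 1340 and 1428 FPKM, Gpx1 fell from 2423 and 2222 to 1454 and 1394, and Gls2 did not pass. Of 24 genes of the thioredoxin and peroxiredoxin system and the superoxide dismutases, none rose and 11 fell, beside the same shares of all genes. The other 13 did not pass, and the list median was -0.60. Sod1, the cytosolic superoxide dismutase, fell from 1599 and 1412 to 738 and 717 FPKM, Prdx2, a peroxide-reducing enzyme, from 182 and 144 to 56.8 and 62.1, and Txn2, the mitochondrial thioredoxin, from 316 and 230 to 83.7 and 90.1. The methionine sulfoxide reductase Sepx1 and the selenoprotein Sepw1 fell as well, as did the abundant Sepp1 and Prdx1, with adjusted p-values of 0.0281 and 0.0477 (limma). With median-ratio scaling 1 rose and 7 fell in the first list and 0 rose and 8 fell in the second.

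Of 16 NADPH supply genes, 1 rose, 3 fell and 12 did not pass, with a median of -0.03, so the share called was close to the 24.3% of all tested genes. H6pd, the counterpart of G6pdx in the endoplasmic reticulum, rose from 61.9 and 65.5 to 230 and 207 FPKM (adjusted p 0.0118, limma), while G6pdx differed by 0.10. Pgls, Idh2 and Taldo1 fell, and these 3 calls were lost after median-ratio or quantile scaling. The most abundant, Aldh1l1, Idh1 and Nadk, did not pass. Of 23 genes of heme handling and iron storage, 4 rose and 3 fell, where 7.30% of all tested genes rose and 17.0% fell. The list median was -0.05. The porphyrin exporter Abcg2 rose from 16.9 and 15.5 to 75.9 and 69.5 FPKM, Alas2 and Ppox of heme synthesis rose, and the ferritin heavy chain Fth1 fell from 1737 and 1813 to 824 and 864 FPKM. The most abundant, Hpx, Ftl1 and Hp, did not pass. Of 18 genes of the ATF4 stress response, which shares Slc7a11, none rose and 1 fell, beside the same shares of all genes. The 1 was Ddit4, from 43.0 and 21.7 to 4.36 and 6.99 FPKM. The most abundant genes of this list, Cebpb, Shmt2 and Atf4, did not pass.

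**Figure D4:**
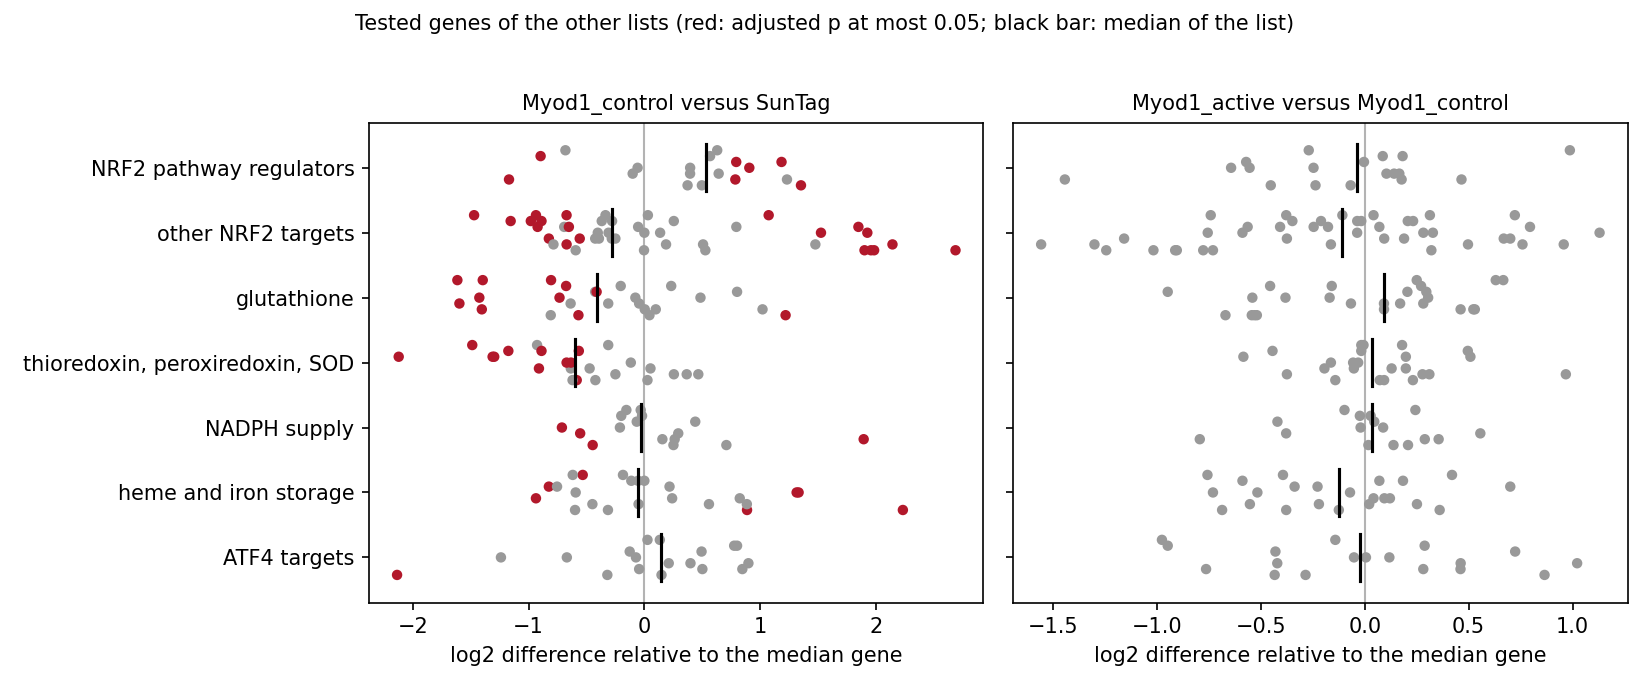
Log2 difference relative to the median gene (x axes) of every tested gene in the 7 lists (rows), in Myod1_control versus SunTag and in Myod1_active versus Myod1_control. Each point is a gene, black bars are list medians and red marks an adjusted p at most 0.05: red points lie on both sides in the first panel and are absent from the second.

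Among 256 genes of the lists and markers, the gene whose log2(FPKM + 1) was most like each varying member over the 7 libraries was found by Pearson's r, as a description that the gap between the experiments shapes. Srxn1 was most like Entpd5, an ectonucleotidase-family enzyme, at r = 0.983. Entpd5 stood at 32.2 to 56.4 FPKM in WT and SunTag, at 105 and 123 in Myod1_control and at 79.8 in Myod1_active. Nqo1 was most like the glutathione transferase Gsta4 at 0.942, which was at 22.9 and 31.2 FPKM in Myod1_control and at 43.1 to 63.5 elsewhere. Gclc was most like the aldehyde oxidase Aox1 at 0.892, at 33.8 and 54.7 FPKM in Myod1_control and at 8.47 to 16.8 elsewhere. Further pairs were G6pdx with Mfsd7b at 0.927, Hmox1 with Rpe at 0.894 and Nfe2l2 with Idh1 at 0.871.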

How the data were processed

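Reads had been processed with cutadapt 1.11, TopHat2 2.1.1 and Cufflinks 2.2.1 on mm9, per the submitters' processing notes. The sources used here do not give settings, annotation or strand use. Each deposited table held FPKM for 37468 gene rows with lower and upper bounds, per the file headers. Starts in the tables count from 0, so 1 was added. Dropped were 343 rows with another status than OK in some library, and rows sharing a symbol were summed (244 symbols). Between 8.11% and 9.41% of rows per library lay outside their own bounds, and genes under 300 bp held 40.5% to 57.9% of the FPKM sum.

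Genes at 1 FPKM or more in at least 1 library entered as log2(FPKM + 1) into limma 3.58.1 (R 4.3.3), 1 mean per group over all 7 libraries and a variance trend (3 residual and 1.93 prior degrees of freedom), two-sided, after the code had been tested on simulated data. For low genes a difference on this scale is smaller than that of the FPKM values themselves. Alternatives were a pseudocount of 0.1, other filters and scalings, genes under 300 bp left out, the 2 groups alone, a replicate block and each library left out. The 10 genes and all lists were chosen with earlier results of these data known. Named from each list were its called genes with groups that do not overlap, at most 5 by smallest p, and its 3 most abundant genes. Promoters came from RefSeq windows on GRCm38.p6, whose coordinates are not those of the mm9 tables. The likeness result for Slc7a11 is not reported here.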

Additional observations from a re-analysis of the deposited data

How the results depend on the processing

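The count of the 10 genes called stayed at 0 in SunTag versus WT and in Myod1_active versus Myod1_control under every alternative run. In Myod1_control versus SunTag it was 1, and 2 when genes were filtered by mean FPKM, 2 with median-ratio scaling, 2 with quantile normalization, 3 with genes under 300 bp left out, 2 when median-ratio scaling was added to that, 0 with the 2 groups alone, 3 with the replicate block and 0 to 2 with 1 library left out. Over all genes, the 20 calls of SunTag versus WT were 5 with genes under 300 bp left out, 5 with median-ratio scaling added, 31 with the 2 groups alone and 23 to 79 with 1 library left out. The 40 calls of Myod1_active versus Myod1_control were 23 with a pseudocount of 0.1, 253 with no filter, 20 with genes under 300 bp left out, 9 with median-ratio scaling added, 0 by limma with the 2 groups alone (2425 at an unadjusted p under 0.05), 23 with the replicate block and 49 to 119 with 1 library left out. The 3832 calls of Myod1_control versus SunTag were 255 with the 2 groups alone and 58 to 4070 with 1 library left out. The cause of these moves was not tested, except that leaving out short genes tests fewer genes. Over all tested genes the deviations of same-numbered libraries correlated at 0.0425, 0.0341 and 0.000757, and the replicate block gave 15, 23 and 2928 calls. Nfe2l2, Keap1, Nqo1, Gclm and Srxn1 were nevertheless higher in replicate 2 than in replicate 1 of WT, SunTag and Myod1_control alike. Whether replicate numbers mark a shared handling is therefore not settled by these correlations.

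Differences of single genes before the shift that changed sign were all of genes that did not pass. With 1 library left out, those of SunTag versus WT ran from -0.17 to 0.013 for Gclm, -0.29 to 0.21 for Srxn1, -0.12 to 0.0067 for Keap1 and -0.21 to 0.15 for Txnrd1. Those of Myod1_active versus Myod1_control ran from -0.089 to 0.35 for Nfe2l2 and -0.26 to 0.083 for Keap1. Those of Myod1_control versus SunTag ran from -0.075 to 0.36 for Nfe2l2, -0.22 to 0.12 for Keap1, -0.084 to 0.065 for Gclm, -0.27 to 0.095 for Txnrd1 and -0.19 to 0.11 for G6pdx. Under median-ratio scaling, quantile normalization, and short genes left out with median-ratio scaling, Myod1_active versus Myod1_control gave -0.18, -0.17 and -0.19 for Nfe2l2 and -0.086, -0.024 and -0.092 for Txnrd1. Under the same 3 scalings Myod1_control versus SunTag gave 0.13, 0.13 and 0.13 for Keap1, 0.18, 0.31 and 0.17 for Gclm, 0.097, 0.12 and 0.094 for Txnrd1, and 0.12, 0.071 and 0.12 for G6pdx. With the replicate block Keap1 was 0.00059 and Srxn1 0.047 in Myod1_active versus Myod1_control. Leaving out Myod1_active gives no value for its own comparison. Depth in reads was unknown, which limits what can be said of Slc7a11 and of other genes under 1 FPKM.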
